A study of Homo sapiens with 9 samples.

Results

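The genes described here are the enzymes, carrier and receptors of sphingosine-1-phosphate (S1P) in cultured kidney cancer cells. They are the kinases SPHK1 and SPHK2, the exporter SPNS2, the receptors S1PR1, S1PR2 and S1PR3, and the breakdown enzymes SGPL1, SGPP1 and PLPP3. These 9 of the 58735 genes in the table were chosen by name with the counts of these libraries already known. Their own levels and changes are therefore a description, with no test behind them, and the word called only says where a gene stood in the test over all genes.

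RNA was sequenced from 786-0 cells, a human clear cell renal carcinoma line, in 3 groups of 3 libraries at 21% oxygen over 48 h. Control was the parental wild type (WT) without drug, PT2385 was the same WT line given 10 µM of the HIF2α antagonist PT2385, and KO was the HIF2a knockout line without drug. All 3 groups share the background of the parental line, which the study's methods list as lacking VHL and HIF1α expression. How the knockout was made, whether it is 1 clone and what vehicle control cells received are not given in the sources used here. Total counts ran from 11881000 to 14730081 per library. The replicates are not stated to be separate cultures, so the p-values below measure only the spread between these samples.

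S1P is a signalling lipid made inside the cell when a kinase adds a phosphate to sphingosine, a product of ceramide. It leaves the cell through carriers, acts from outside on G protein-coupled receptors, and is removed by a lyase that cleaves it or by phosphatases that take the phosphate off. The pathway is best known for guiding lymphocytes out of tissues and for keeping blood vessel walls tight, and kidney is among the organs where its enzymes and receptors have been studied.

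The label of the knockout was checked first on EPAS1, the gene of HIF2α (ENSG00000116016, chr2:46293667-46386697 of GRCh38, plus strand). Levels are given in CPM, read counts scaled to the size of each library, with TMM factors over the 9 libraries. EPAS1 stood at 270, 264 and 233 CPM in control, at 248, 248 and 219 CPM with PT2385 and at 20.2, 24.9 and 21.1 CPM in KO. All 3 KO libraries lay far under the other 6, while control and PT2385 overlapped. The log2 fold change of EPAS1 was -3.52 ± 0.10 (SE, adjusted p = 2.15e-09, edgeR) for KO and -0.11 ± 0.07 (adjusted p = 0.459) for PT2385, each against control. The KO libraries still held 262, 360 and 307 EPAS1 reads. The study named VEGFA, a HIF target, as lower with PT2385 in its RNA sequencing. Here VEGFA was lower in all 6 libraries of both groups. Its log2 fold change was -2.12 ± 0.07 for PT2385 (adjusted p = 1.93e-09) and -2.12 ± 0.09 for KO (adjusted p = 3.72e-08). NDRG1 and EGLN3, named by the study in the same way, were at -3.54 ± 0.10 and -3.14 ± 0.10 with PT2385 (adjusted p = 6.84e-10 and 1.35e-09) and at -3.74 ± 0.11 and -5.74 ± 0.12 in KO (adjusted p = 2.82e-09 and 5.46e-10).

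The labelled cell type was checked on markers. All 6 renal epithelial markers had reads in every library, led by PAX8 at 563 to 679 CPM, and their summed level was 1371 to 1494 CPM in control, 1426 to 1601 CPM with PT2385 and 1671 to 1769 CPM in KO. The markers went different ways within that sum, with mean levels in control, PT2385 and KO of 34.2, 25.2 and 13.7 CPM for PAX2, 406, 486 and 585 CPM for KRT8 and 161, 223 and 288 CPM for KRT18. Because S1PR1 is a gene well known from blood vessel lining, 5 endothelial markers were read as well. Their summed reads were 1 to 2 per control library, 1 to 3 per PT2385 library and 6 to 8 per KO library, with TEK the most abundant over the 9 libraries at 0 to 6 reads, and PECAM1 and VWF had 0 reads in all 9 libraries. The 4 leukocyte markers summed to 1 to 8 reads per library, with ITGAM the most abundant over the 9 libraries at 0 to 8 reads and CD3E at 0 in all 9. The 4 fibroblast markers summed to 67 to 141 reads, with PDGFRA and DCN at 0 in all 9. Of the other two, COL1A1 had 55 to 77 reads per control library, 86 to 104 with PT2385 and 24 to 45 in KO, and LUM had 15 to 22, 29 to 37 and 31 to 60, so that LUM was the higher in KO replicates 1 and 2. In bulk RNA, fewer cells of a type and less RNA per cell cannot be told apart. The part of the renal, endothelial and fibroblast markers in the differences below was not tested.

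With PT2385 the exporter SPNS2 was lower and the receptor S1PR1 higher in every treated library, by 3.02-fold and 2.43-fold. In KO the same genes stood further from control, SPNS2 13.4-fold lower and S1PR1 5.70-fold higher, and S1PR3, S1PR2 and PLPP3 were higher too. The kinases SPHK1 and SPHK2 and the enzymes SGPL1 and SGPP1 were not called in either, except that with the replicate number as a block SPHK1 was called lower with PT2385 (log2 fold change -0.20 ± 0.05) and SGPL1 higher in KO (log2 fold change 0.17), the latter also under the alternatives named with that gene. Both comparisons use the same 3 control libraries.

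A gene is called here where its adjusted p is under 0.05 in the edgeR fit over all genes tested. For PT2385 against control, 2 of 8 tested members were called, 1 higher and 1 lower, and over all 15089 genes tested 7.7% were called, 3.08% higher and 4.62% lower. For KO against control, 5 of 9 members were called, 4 higher and 1 lower, beside 30.1% of 15192 genes, 14.7% higher and 15.4% lower. For KO against PT2385, 4 of 9 members were called, 3 higher and 1 lower, beside 18.8% of 15402 genes, 8.47% higher and 10.3% lower. With the replicate number as a block, 15.3% of genes were called for PT2385 against control, and 3 members. Nothing is read from the members' counts beside these shares, since the members were chosen with these comparisons known. PLPP3 had too few reads in control and PT2385 to be tested between them. It entered the fits with KO only through the KO group, and it is among the members counted as called in both.

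The number of genes called for PT2385 against control was 1162, with 465 higher and 697 lower. It fell by over 1.5 times, to 654, 581 and 728, without control replicates 1, 2 and 3 in turn, and to 574 without PT2385 replicate 2, and it was 2305 with the block. For KO against control 4566 genes were called. For KO against PT2385 the count was 2897, and 1836 without PT2385 replicate 2.

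**Figure D1:**
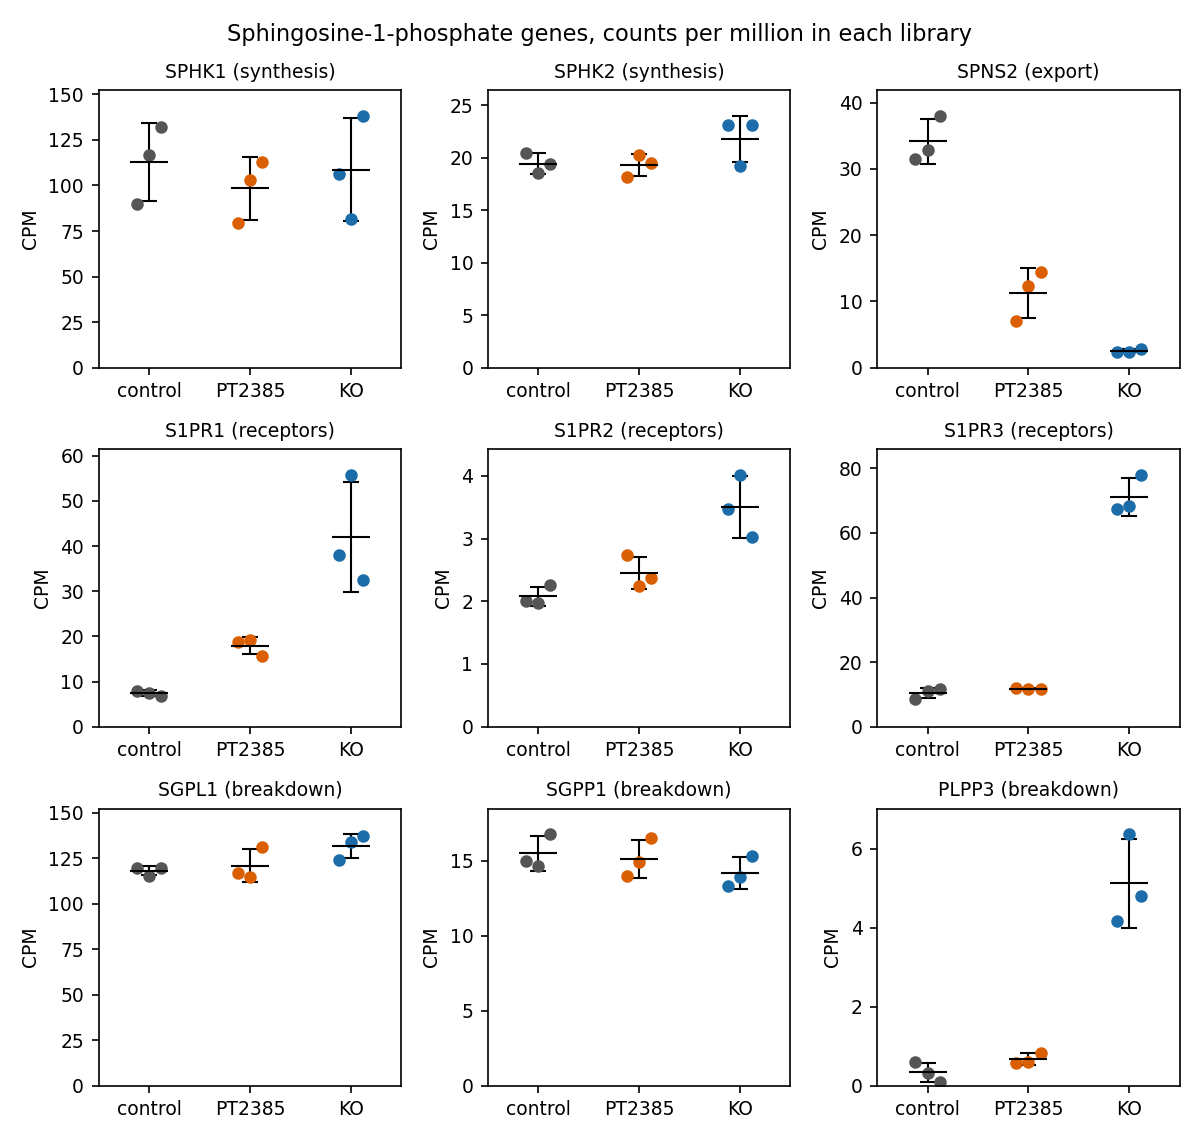
Level of each of the 9 S1P genes in CPM (vertical axis, from 0, own scale per panel) for control, PT2385 and KO, with 1 point per library and bars for the mean ± SD of 3 libraries. SPNS2 steps down from 34.1 to 11.3 and 2.54 CPM, S1PR1 steps up from 7.38 to 17.9 and 42.0 CPM, S1PR3 and PLPP3 stand apart in KO, and the kinases lie at like levels in all 3 groups.

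Of the kinases, SPHK1 (ENSG00000176170, chr17:76376584-76387860, plus strand) makes S1P mainly near the plasma membrane. It stood at 90.0, 117 and 132 CPM in control, at 79.4, 103 and 113 CPM with PT2385 and at 106, 81.5 and 138 CPM in KO. The spread within each group was wide, and all 3 groups overlapped. The log2 fold change was -0.20 ± 0.14 with PT2385 and -0.04 ± 0.17 in KO against control, and 0.14 ± 0.17 for KO against PT2385, none of them called. Within pairs of the same replicate number the PT2385 library was lower in 3 of 3, with log2 ratios of -0.18, -0.18 and -0.22. With the replicate number as a block the gene was called lower with PT2385, at -0.20 ± 0.05. Single libraries moved these values both ways. Leaving out 1 library, PT2385 against control ran from -0.34 without control replicate 1 to -0.07 without PT2385 replicate 1 or control replicate 3. KO against control was 0.13 without KO replicate 2 and -0.25 without KO replicate 3, and KO against PT2385 was 0.31 and -0.07 without the same libraries.

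SPHK2 (ENSG00000063176, chr19:48619291-48630717, plus strand) encodes the kinase found largely in the nucleus and on inner membranes. Its level was 20.4, 18.5 and 19.4 CPM in control, 18.2, 20.2 and 19.5 CPM with PT2385 and 23.1, 19.3 and 23.1 CPM in KO. Replicates 1 and 3 of KO lay above all other libraries, and replicate 2 among them. Its log2 fold change was -0.01 ± 0.10 with PT2385, 0.18 ± 0.11 in KO and 0.17 ± 0.11 for KO against PT2385, and none was called. On the annotation SPHK1 shares 59 exon bases with PRPSAP1 on the other strand, and SPHK2 shares 661 with DBP and 678 with ENSG00000268093, which had 54 and 4 reads in all 9 libraries together. PRPSAP1 was not called in KO against control, at -0.16 ± 0.07 (adjusted p = 0.123).

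Export of S1P is the work of SPNS2, a membrane carrier of the spinster family (ENSG00000183018, chr17:4498881-4539035, plus strand). SPNS2 stood at 31.5, 32.9 and 38.0 CPM in control, at 7.10, 12.4 and 14.4 CPM with PT2385 and at 2.39, 2.42 and 2.82 CPM in KO. The 3 groups form 3 steps with no overlap, control highest and KO lowest. The log2 fold change was -1.58 ± 0.18 with PT2385, -3.73 ± 0.14 in KO and -2.15 ± 0.26 for KO against PT2385, and each was called. With the block the PT2385 value was -1.60 ± 0.12. Across the 13 alternatives run, the call was made in all of them for each of the 3 comparisons, with values from -1.80 to -1.35, from -3.80 to -3.65 and from -2.39 to -1.93. In reads, SPNS2 had 376 to 455 per control library, 88 to 207 with PT2385 and 31 to 41 in KO.

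The last exon bases of SPNS2 lie on those of MYBBP1A, which is read from the opposite strand at chr17:4538897-4555386, with 139 exon bases in common. MYBBP1A, a nucleolar protein that binds MYB, had 20730 reads over the 9 libraries and moved the other way: its mean was 145 ± 8.37 CPM (SD) in control, 185 ± 25.2 CPM with PT2385 and 191 ± 29.1 CPM in KO. It rose by 0.41 ± 0.10 on the log2 scale in KO (adjusted p = 0.00797) and by 0.35 ± 0.09 with PT2385 (adjusted p = 0.0369). The PT2385 call ended with all 9 libraries in 1 model (adjusted p = 0.0849) and without control replicates 1, 2 and 3 (0.161, 0.105 and 0.0895) or PT2385 replicate 2 (0.158), in a range of 6.05e-05 to 0.161 over the alternatives. Whether the libraries were stranded is not given in the sources used here, and the part of the shared bases in the SPNS2 counts was not tested. An antisense gene across the start of SPNS2, SPNS2-AS1 (chr17:4497394-4499674), shares no exon base with it and had 21 reads in all, with 4 to 7 per control library, 0 to 3 with PT2385 and 0 in KO.

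The other members of the spinster family were scarcely read. SPNS1 was not called in either comparison with control, at 0.37 ± 0.32 and 0.20 ± 0.32 on the log2 scale, from a mean of 0.944 CPM in control. SPNS3 fell by 1.46 ± 0.41 in KO (adjusted p = 0.0195), from 1.86 ± 0.50 to 0.652 ± 0.37 CPM (SD). That call ended without control replicate 3 (adjusted p = 0.0907) and without KO replicate 1 (0.0558), in a range of 0.000793 to 0.0907.

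**Figure D2:**
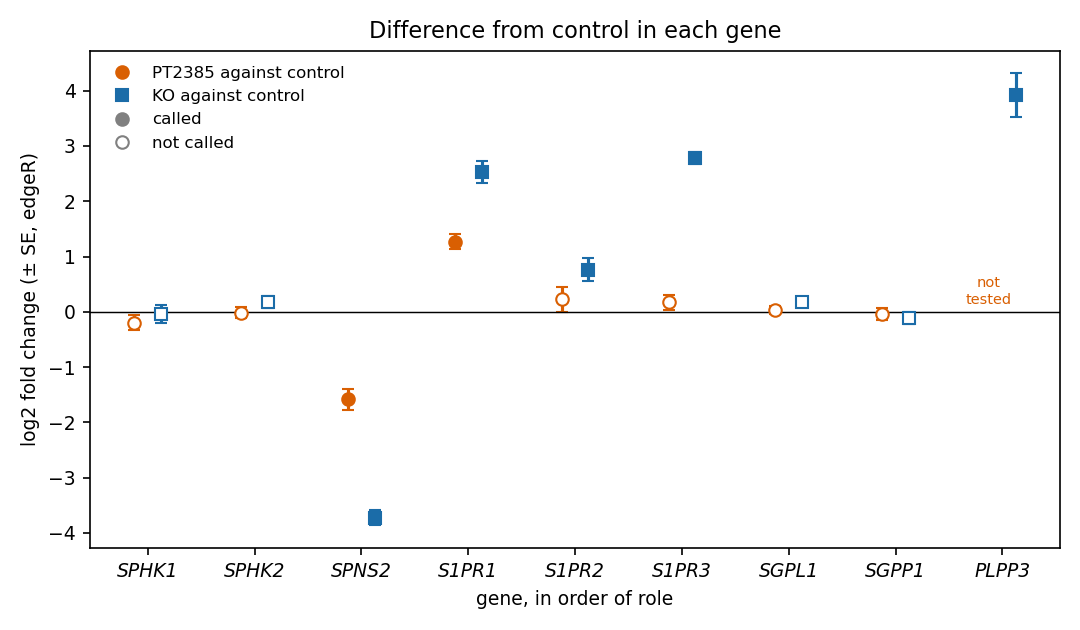
Difference of each S1P gene from control as a log2 fold change (vertical axis, ± SE, edgeR), with orange circles for PT2385 and blue squares for KO, filled where called. SPNS2 lies at -1.58 and -3.73, S1PR1 at 1.27 and 2.52, S1PR3 and PLPP3 stand high in KO at 2.79 and 3.92, and PLPP3 was not tested with PT2385.

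Among the receptors, S1PR1 signals through inhibitory G proteins and supports cell migration and vessel barriers (ENSG00000170989, chr1:101236865-101243713, plus strand). It stood at 7.96, 7.49 and 6.69 CPM in control, at 18.8, 19.2 and 15.7 CPM with PT2385 and at 37.9, 55.8 and 32.4 CPM in KO. Every PT2385 library was above every control library, and every KO library above every PT2385 library, with KO replicate 2 the highest of the 9. The log2 fold change was 1.27 ± 0.13 with PT2385, 2.52 ± 0.20 in KO and 1.23 ± 0.18 for KO against PT2385, each called, and the PT2385 value was 1.27 ± 0.11 with the block. SPNS2 and S1PR1 are the members called in all 3 comparisons, in opposite directions.

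S1PR3, a receptor that couples to several families of G proteins (ENSG00000213694, chr9:88990863-89005155, plus strand), stood apart in KO. It had 8.55, 11.2 and 11.5 CPM in control, 12, 11.6 and 11.7 CPM with PT2385 and 67.3, 68.4 and 78.0 CPM in KO. The KO libraries were all far above the other 6, and the PT2385 libraries all lay just above the highest control library. On the log2 scale the fold change was 2.79 ± 0.11 in KO against control and 2.60 ± 0.09 for KO against PT2385, both called, and 0.17 ± 0.13 with PT2385, not called. As a ratio of mean CPM, KO was 6.83-fold above control and 6.05-fold above PT2385.

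S1PR2, a receptor known for coupling to the G12 family and for restraining migration (ENSG00000267534, chr19:10221433-10231331, minus strand), was the most weakly read receptor of the 3. It had 2.01, 1.97 and 2.26 CPM in control, 2.74, 2.24 and 2.37 CPM with PT2385 and 3.47, 4.02 and 3.02 CPM in KO, from 24 to 58 reads per library. The KO libraries were all above the others, and PT2385 overlapped with control. On the log2 scale S1PR2 differed by 0.76 ± 0.21 in KO, called, and 0.23 ± 0.22 with PT2385 and 0.51 ± 0.21 for KO against PT2385, neither called. In KO the call ended narrowly, with like log2 fold changes, under DESeq2 (log2 fold change 0.77) and without control replicate 1 (log2 fold change 0.74), control replicate 2 (0.72) or KO replicate 2 (0.65). S1PR2 shares 83 exon bases with DNMT1 on the same strand, a gene with 37952 reads that was not called in KO, at -0.17 ± 0.07 (adjusted p = 0.0973).

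Levels of different genes were compared per kilobase (kb) of annotated exon. Summed over S1PR1, S1PR2 and S1PR3, the receptors came to 2.70, 2.79 and 2.74 CPM per kb in control, 5.23, 5.14 and 4.51 CPM per kb with PT2385 and 13.1, 16.8 and 12.7 CPM per kb in KO. The groups form 3 steps here as well. Of that sum, S1PR1 held 51.5% ± 4.88 (SD, n = 3) in control, 69.0% ± 2.40 with PT2385 and 55.9% ± 7.48 in KO, while S1PR3 held 27.7% ± 4.04, 17.4% ± 1.28 and 37.3% ± 7.49. S1PR2 held 20.8% ± 1.63, 13.6% ± 1.42 and 6.79% ± 0.416. Per kb of the main transcript, which for S1PR3 is much shorter than all its exons, S1PR3 held 42.6%, 27.7% and 51.1% and S1PR1 47.2%, 65.4% and 45.9%, so which of them leads in KO depends on the length used.

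**Figure D3:**
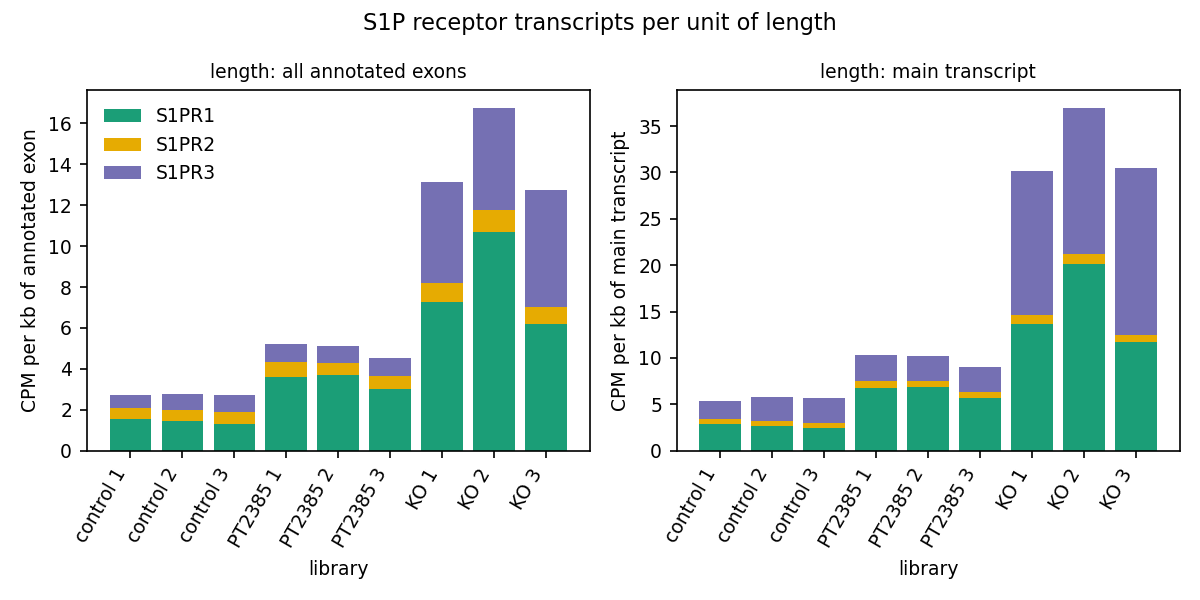
Receptor transcripts in each of the 9 libraries as stacked bars in CPM per kb (vertical axis, from 0), per kb of all annotated exons at left and of the main transcript at right, with colours for S1PR1, S1PR2 and S1PR3. The summed bars step up from control (mean 2.75 at left) to PT2385 (4.96) and KO (14.2), with S1PR1 widening with PT2385 and both S1PR1 and S1PR3 in KO.

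Promoter windows were read because S1PR1, S1PR3 and PLPP3 had the largest positive log2 fold changes in KO among the members. The windows show the letters around starts listed for these genes in RefSeq. That of PLPP3 lies inside the gene's annotated span, away from its outermost start. RefSeq windows of 300 bases on GRCh38.p14, from 250 before to 50 after a start, were found for 7 of the 9 members, 11 windows in all, and SPNS2 and SGPP1 had none. Both strands were searched for ACGTG and GCGTG, the core letters of the known hypoxia response element. Capitals mark a match, which reads CACGT or CACGC where it lies on the other strand. The windows are chr1:101236769-101237068 (plus strand) for S1PR1, chr9:88990613-88990912 (plus strand) for S1PR3, and chr1:56579514-56579813 (minus strand) for PLPP3.
S1PR1: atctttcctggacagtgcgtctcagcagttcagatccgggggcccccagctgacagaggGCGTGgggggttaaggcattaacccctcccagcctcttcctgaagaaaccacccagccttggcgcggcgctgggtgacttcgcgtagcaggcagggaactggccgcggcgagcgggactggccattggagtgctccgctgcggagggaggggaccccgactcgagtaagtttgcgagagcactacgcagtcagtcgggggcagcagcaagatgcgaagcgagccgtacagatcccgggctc
S1PR3: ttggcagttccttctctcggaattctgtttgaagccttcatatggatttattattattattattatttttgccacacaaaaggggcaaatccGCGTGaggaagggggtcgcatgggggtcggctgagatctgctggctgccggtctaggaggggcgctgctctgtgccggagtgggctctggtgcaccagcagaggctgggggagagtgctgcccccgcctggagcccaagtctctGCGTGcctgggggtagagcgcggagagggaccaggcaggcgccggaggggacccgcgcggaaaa
PLPP3: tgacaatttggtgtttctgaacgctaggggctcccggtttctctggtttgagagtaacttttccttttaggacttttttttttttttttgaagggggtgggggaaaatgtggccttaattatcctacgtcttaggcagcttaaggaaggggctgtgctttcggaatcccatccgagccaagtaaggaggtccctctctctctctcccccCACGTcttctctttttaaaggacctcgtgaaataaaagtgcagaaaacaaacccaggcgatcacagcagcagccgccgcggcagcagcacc

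The S1PR1 window holds GCGTG 191 bases before the start, the S1PR3 window printed holds GCGTG at 158 and 14 bases before it, and the PLPP3 window holds ACGTG on the other strand 41 bases before it. A further S1PR3 window, at chr9:88991218-88991517, holds neither motif. Of the 11 member windows 7 held a match. Over all 35116 windows of this length, 48.5% held either motif, 21.4% ACGTG and 36.5% GCGTG. A match describes letters and is no evidence of binding.

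Breakdown begins with SGPL1, the lyase that cleaves S1P for good (ENSG00000166224, chr10:70815905-70895816, plus strand). It stood at 119, 115 and 119 CPM in control, at 117, 115 and 131 CPM with PT2385 and at 124, 134 and 137 CPM in KO. Each KO library was above each control library by a narrow margin, and PT2385 overlapped with both. On the log2 scale the fold change was 0.17 ± 0.06 in KO, 0.03 ± 0.07 with PT2385 and 0.12 ± 0.08 for KO against PT2385, none called. In KO the gene was called with upper-quartile scaling (log2 fold change 0.18), with the replicate number as a block (log2 fold change 0.17) and without KO replicate 1 (log2 fold change 0.22). On the annotation SGPL1 shares 815 exon bases with ENSG00000289738 on the same strand, and that gene is not in the table. No other pair of a member and an overlapping gene shares as many. PCBD1 lies within SGPL1 on the other strand with no exon base in common. PCBD1 rose by 0.26 ± 0.08 in KO (adjusted p = 0.0246), a call that ended without control replicate 2 (adjusted p = 0.109), control replicate 3 (0.0917) or KO replicate 2 (0.0844), in a range of 0.0183 to 0.109.

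SGPP1, a phosphatase of the endoplasmic reticulum that turns S1P back into sphingosine (ENSG00000126821, chr14:63684216-63728065, minus strand), was not called in any of the 3 comparisons. It had 15, 14.7 and 16.8 CPM in control, 13.9, 14.9 and 16.5 CPM with PT2385 and 13.3, 13.9 and 15.3 CPM in KO. All 3 groups overlapped. As log2 fold changes SGPP1 had -0.03 ± 0.11 with PT2385, -0.11 ± 0.11 in KO and -0.10 ± 0.12 for KO against PT2385.

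PLPP3, a phosphatase that takes phosphate off S1P and other lipids at the cell surface (ENSG00000162407, chr1:56494761-56645301, minus strand), was near the floor outside KO. It had 7, 4 and 1 reads in control, 7, 8 and 12 with PT2385 and 54, 92 and 70 in KO, or 0.587, 0.329 and 0.0836 CPM, then 0.565, 0.598 and 0.838 CPM, then 4.17, 6.37 and 4.81 CPM. Every KO library was above the other 6, and PT2385 overlapped with control. For PLPP3 the log2 fold change was 3.92 ± 0.39 in KO against control and 2.91 ± 0.28 for KO against PT2385, both called. The gene passed the filter on low counts in those fits only through the KO group, so these calls are no test of PLPP3. The value against control rests on 1 to 7 reads per control library, and it was 4.58 without control replicate 1 and 3.47 without control replicate 3. PLPP3 shares 576 exon bases with ENSG00000284686 on the same strand, which had 2 reads in all.

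Per kb of annotated exon, the order of mean levels in control was SPHK1 (25.6 CPM per kb), SGPL1 (10.2), SPNS2 (8.40), SGPP1 (4.64), SPHK2 (3.24), S1PR1 (1.41), S1PR3 (0.761), S1PR2 (0.571) and PLPP3 (0.0632). No neighbours in that order overlapped. With PT2385, SPHK1 (22.3), SGPL1 (10.5) and SGPP1 (4.53) led, and S1PR1 (3.43), SPHK2 (3.21) and SPNS2 (2.78) followed with overlapping ranges. In KO, S1PR1 (8.05) and S1PR3 (5.20) stood behind SPHK1 (24.6) and SGPL1 (11.4), PLPP3 (0.971) and S1PR2 (0.962) overlapped, and SPNS2 (0.626) was last. SPNS2 thus went from place 3 in control to place 9 in KO, and S1PR1 from place 6 to place 3. Per kb of the main transcript SPHK2 stood above SGPP1 in all 3 groups, and S1PR1 and S1PR3 overlapped in control and in KO. By that length S1PR1 was at place 4 in KO (15.13 CPM per kb), behind S1PR3 (16.45).

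The median log2 fold change over the members tested was 0.01 with PT2385, 0.18 in KO and 0.17 for KO against PT2385, beside 0.00 over all genes tested in each of the 3 comparisons. SPNS2 and S1PR1 lie on opposite sides of it in each.

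The remaining genes of the pathway were listed by role: other S1P receptors, phosphatases and carriers, then ceramide synthesis, ceramidases, and conversion of ceramide and sphingomyelin. Of 47 such genes 34 were tested. With PT2385 4 were called, 1 higher and 3 lower, beside 7.7% of all genes tested. In KO 11 were called, 7 higher and 4 lower, beside 30.1%, and for KO against PT2385 10, 6 higher and 4 lower, beside 18.8%. Nothing particular to the list is read from these counts. Their median log2 fold changes were -0.04, 0.01 and -0.01. The PT2385 count was 1 without control replicate 1 or without control replicate 2, and 7 with the block, which added KDSR (-0.21 ± 0.06), CERS2 (0.14 ± 0.04) and SGMS2 (-0.22 ± 0.05). The count for KO against PT2385 was 5 without PT2385 replicate 2 and 5 without KO replicate 1.

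Close to the members in function, the other S1P receptors were barely read or not at all: S1PR5 had 0 reads in all 9 libraries, and S1PR4 had 0 to 5 reads per library. In this list of 12 genes 7 were tested. With PT2385 1 was called, higher, beside 7.7% of all genes tested. In KO 3 were called, 1 higher and 2 lower, beside 30.1%. ALDH3A2, the dehydrogenase that handles the aldehyde left when SGPL1 cleaves S1P, stood at 11.7, 12.5 and 14.8 CPM in control, 19.2, 17.6 and 22.1 CPM with PT2385 and 33.0, 39.9 and 36.0 CPM in KO. Its 3 groups form steps with no overlap. ALDH3A2 rose by 0.59 ± 0.12 on the log2 scale with PT2385 (adjusted p = 0.0124) and by 1.50 ± 0.11 in KO (adjusted p = 3.22e-06). The PT2385 call ended without control replicate 1 (adjusted p = 0.0625) and without control replicate 2 (0.0684), in a range of 9.52e-05 to 0.0684. The carriers ABCB1 and ABCC1, which have been tied to S1P export in other cells, fell in KO by 0.63 ± 0.11 (adjusted p = 0.000957) and 0.35 ± 0.06 (adjusted p = 0.000779), each lower in 3 of 3 KO libraries. ABCA1, the most abundant gene of the list at 52.9 CPM per kb, was not called in KO, at -0.38 ± 0.13 (adjusted p = 0.053). It was called with DESeq2 (0.0104), with no filter (1.27e-07), with the block (0.00642), with all 9 libraries in 1 model (0.0491), without KO replicate 2 (0.0135) and without KO replicate 3 (0.0201), in a range of 1.27e-07 to 0.152. Its log2 fold change was -0.50 without KO replicate 2 and -0.20 without KO replicate 3.

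Ceramide synthesis supplies the sphingosine that SPHK1 and SPHK2 use, and 12 of its 17 listed genes were tested. With PT2385 1 was called, lower, beside 7.7% of all genes tested. In KO 3 were called, 2 higher and 1 lower, beside 30.1%. SPTLC2, a catalytic subunit of the enzyme that starts the pathway, stood at a mean of 116 ± 6.02 CPM (SD) in control, 94.7 ± 8.35 CPM with PT2385 and 83.6 ± 4.87 CPM in KO. It fell by 0.46 ± 0.07 in KO (adjusted p = 0.000444) and by 0.29 ± 0.08 with PT2385 (adjusted p = 0.0352). The PT2385 call ended without control replicates 1, 2 and 3 (adjusted p = 0.0565, 0.15 and 0.139) and without PT2385 replicates 1 and 2 (0.0635 and 0.163), in a range of 0.00179 to 0.163. SPTLC3, its alternative subunit, went the other way in KO, from 5.03 ± 1.24 to 14.6 ± 5.30 CPM (SD), a rise of 1.55 ± 0.28 (adjusted p = 0.00161). DEGS1, the desaturase that completes ceramide, rose by 0.54 ± 0.07 in KO (adjusted p = 0.000131). CERS2, the most abundant gene of the list at 51.8 CPM per kb, was not called in either. SPTSSB, CERS3 and CERS4 had 0 reads in all 9 libraries.

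The ceramidases free sphingosine from ceramide. Of 5 listed, 4 were tested and ACER1 had 0 reads in all 9 libraries. In KO ASAH1 was called higher, at 0.34 ± 0.11 (adjusted p = 0.0409), though KO and control overlapped at 37.6 to 50.7 and 34.3 to 39.4 CPM. That call ended with all 9 libraries in 1 model (0.0588), without control replicates 1, 2 and 3 (0.121, 0.0557 and 0.135) and without KO replicates 1 and 2 (0.123 and 0.132), in a range of 0.000871 to 0.135. ACER2 was called higher in KO as well, at 1.001 ± 0.34 (adjusted p = 0.0457), from 6 to 23 reads per library. It was not called with DESeq2 (0.15), with all 9 libraries in 1 model (0.0673), without control replicates 1 and 3 (0.138 and 0.166) and without KO replicates 1, 2 and 3 (0.0874, 0.0962 and 0.0774), in a range of 0.0269 to 0.166. With PT2385 the values were 0.23 ± 0.10 for ASAH1 and 0.99 ± 0.41 for ACER2, neither called (adjusted p = 0.237 and 0.188).

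Conversion of ceramide to and from sphingomyelin and glycosylceramide had 11 of 13 listed genes tested. With PT2385 2 were called, both lower, beside 7.7% of all genes tested. UGCG, which makes glucosylceramide and is the most abundant gene of the list at 128 CPM per kb, stood at 596, 671 and 653 CPM in control, 505, 511 and 523 CPM with PT2385 and 579, 622 and 579 CPM in KO. PT2385 lay under all other libraries, and KO overlapped with control. UGCG fell by 0.32 ± 0.06 with PT2385 (adjusted p = 0.00448, at most 0.0486 over the 13 alternatives), and in KO its value was -0.10 ± 0.06 (adjusted p = 0.287). CERT1, the carrier that brings ceramide to sphingomyelin synthesis, fell by 0.45 ± 0.10 with PT2385 (adjusted p = 0.0202), a call that ended without control replicate 1 (0.0758) and control replicate 2 (0.107), in a range of 0.000116 to 0.107. For CERT1 the KO value was -0.14 ± 0.07 (adjusted p = 0.178). For KO against PT2385 these values were 0.21 ± 0.06 for UGCG (adjusted p = 0.036) and 0.29 ± 0.11 for CERT1 (adjusted p = 0.089), and no alternatives were run for them in that comparison.

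In KO, SMPD2, a sphingomyelinase, rose by 0.82 ± 0.13 (adjusted p = 0.000594), and CERK, which phosphorylates ceramide, fell by 0.32 ± 0.08 (adjusted p = 0.00955).

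**Figure D4:**
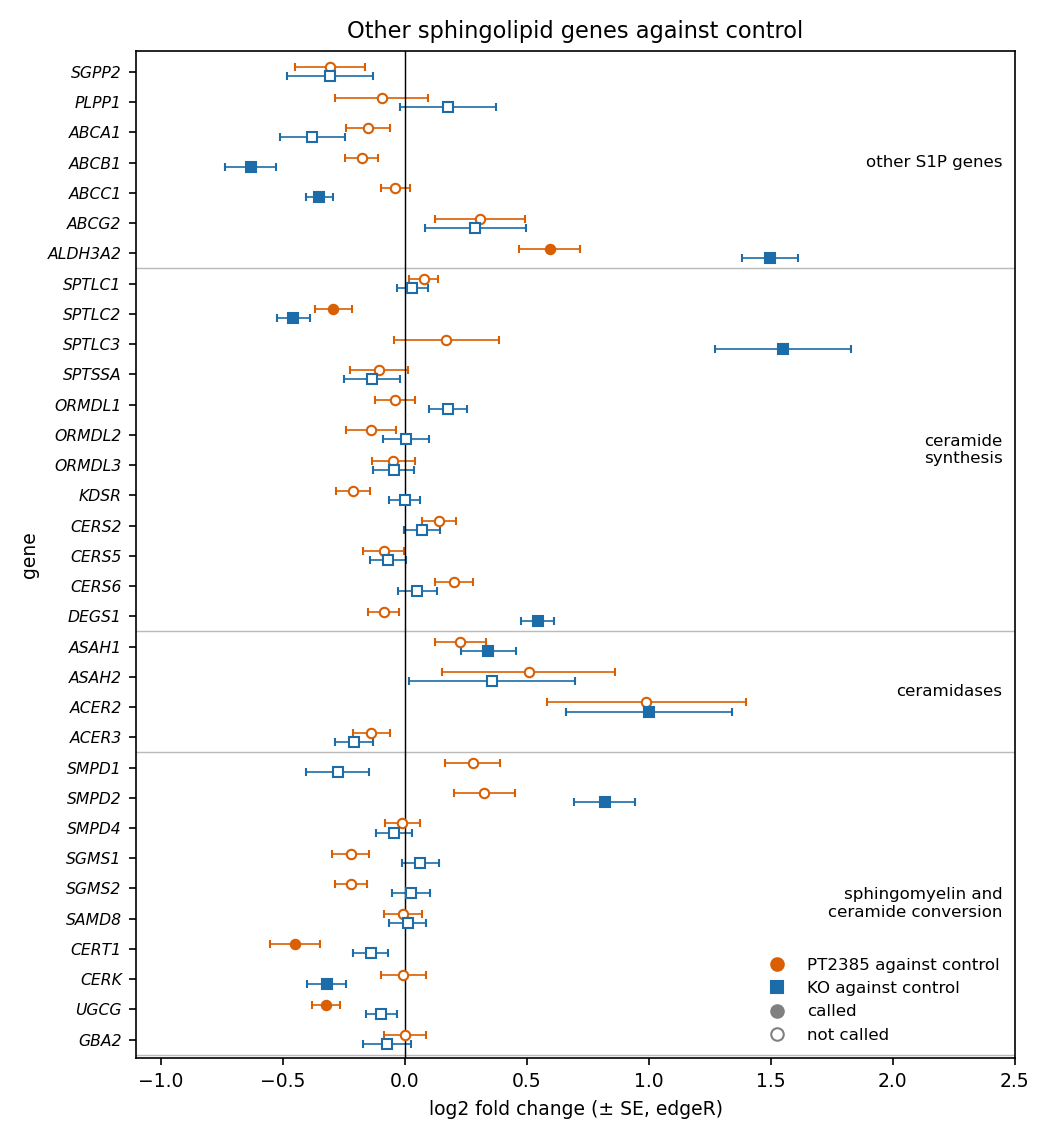
Log2 fold change against control (horizontal axis, ± SE, edgeR) of tested sphingolipid genes outside the 9 members, grouped by role, with orange circles for PT2385 and blue squares for KO, filled where called. ALDH3A2 lies right of 0 in both at 0.59 and 1.50, SPTLC2 left of 0 in both at -0.29 and -0.46, and SPTLC3 stands out in KO at 1.55.

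Inside the cell the S1P receptors hand their signal to G protein alpha subunits, and all 7 listed were tested. With PT2385 2 were called, GNAI3 and GNA13, both lower, beside 7.7% of all genes. In KO, against the same control libraries, 2 were called, again GNAI3 and GNA13 and both lower, beside 30.1% of all genes. GNAI3, an inhibitory subunit, stood at 244, 242 and 249 CPM in control, 212, 197 and 200 CPM with PT2385 and 187, 195 and 194 CPM in KO. GNA13, of the G12 family, had a mean of 188 ± 2.69 CPM (SD) in control, 155 ± 8.21 CPM with PT2385 and 135 ± 0.917 CPM in KO. Both genes were under all control libraries in every PT2385 and KO library. In KO GNAI3 fell by 0.34 ± 0.05 (adjusted p = 0.000801) and GNA13 by 0.46 ± 0.05 (adjusted p = 9.46e-05). With PT2385 GNAI3 fell by 0.27 ± 0.06 (adjusted p = 0.0116), a call that ended without control replicate 2 (0.0601) and without PT2385 replicate 2 (0.0828), in a range of 0.000957 to 0.0828. GNA13 fell by 0.28 ± 0.06 (adjusted p = 0.0155), and that call ended without control replicates 1 and 2 (0.0598 and 0.0973) and without PT2385 replicate 2 (0.0559), in a range of 0.00121 to 0.0973. GNAI2, the most abundant of the list at 42.6 CPM per kb, was not called in either.

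The members with the widest range of group means among those with a mean of at least 100 counts were SPNS2 (3.67 log2 units) and S1PR3 (2.76 log2 units). Over the 9 libraries and 10140 genes, the log2 CPM most like SPNS2 by Pearson's r belonged to ADO (0.995), JPT2 (0.993), CMIP (0.991), MLLT6 (0.989) and CENPA (0.988). CMIP, for example, went from 334 ± 21.5 to 221 ± 12.7 and 147 ± 6.47 CPM (SD) in control, PT2385 and KO, the same order in smaller steps. Most like S1PR3 were ADAMTS5 (0.997), SATB1 (0.997), SLC9A7 (0.996), EGLN1 (0.996) and MGST1 (0.995). ADAMTS5, a secreted protease, stood at 12.3 ± 1.88, 14.1 ± 1.15 and 92.4 ± 0.917 CPM, and EGLN1, an oxygen-sensing prolyl hydroxylase, at 72.8 ± 0.571, 76.3 ± 1.10 and 167 ± 4.44 CPM. These r values are a description over libraries that fall into 3 groups.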

How the data were processed

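The values are the raw read counts per gene deposited by the authors, 9 columns with 0 unmapped; they name FastQC, cutadapt, STAR on GRCh38 and featureCounts, with versions not stated. The annotation release and strandedness are not given in the sources used here. Symbols, positions and lengths came from GENCODE v44. Each pair of groups was fitted alone with edgeR 4.0.16 on R 4.3.3 (TMM, filterByExpr with a minimum count of 10, quasi-likelihood F test, two-sided), with Benjamini-Hochberg adjustment over all genes tested. The SE beside a log2 fold change was derived from that test, as the absolute log2 fold change divided by the square root of its F statistic. The code was tested on simulated counts with known changes in well-counted genes and no effect of the replicate number. Genes of few reads, smaller changes and replicate effects were not covered by it. For a single value, an exact permutation test of 3 against 3 cannot go below 0.1, so none was run. Between PT2385 and control each library was most like that of the same replicate number (correlations 0.453, 0.137 and 0.431 over 10140 genes). A fit with that number as a block is therefore given beside that comparison. Replicates 1 and 3 of KO were also alike by number to those of the other groups, and there the block is 1 of the alternatives. Alternatives were DESeq2 1.42.0, scaling by RLE, by upper quartiles or by library size alone, fitting without the filter, the block, all 9 libraries in 1 model, and leaving out each library.

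The members and lists were chosen with earlier results of these data known. Named genes are the 9 members, genes overlapping them on the genome, listed genes called in either comparison with control, and the most abundant gene of each list; for likeness, the 5 genes with the highest Pearson's r. Tables and plots used Python 3.11.15, pandas 2.3.3 and matplotlib 3.10.9.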

Additional observations from a re-analysis of the deposited data

How the results depend on the processing

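Of 75 single-gene results, 59 kept their side of the threshold in all 13 alternatives, and 0 alternative values of called genes changed sign. With the replicate number as a block, the genes called for PT2385 against control went from 1162 to 2305, with all 1162 among them, and the other sphingolipid genes from 4 to 7. For KO against control the block gave 5501 genes, 6 members and 13 other sphingolipid genes, and for KO against PT2385 3783, 4 and 12. In those comparisons libraries share only a number, with same-number correlations of 0.319, 0.056 and 0.481 and of 0.348, 0.0915 and 0.415.

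Leaving out each library in turn, the genes called ranged from 574 to 1451 for PT2385 against control and from 1836 to 3190 for KO against PT2385, and the other sphingolipid genes from 1 to 5 and from 5 to 10. Members called ranged from 2 to 3, from 4 to 6 and from 4 to 4 over the alternatives. The cause of these shifts was not tested. DESeq2 called 1072, 3972 and 2612 genes. Counts of a few reads limit PLPP3 outside KO, SPNS3 and ACER2. No scaling moved the median of all genes by over 0.1 on the log2 scale. With 3 libraries a group, the estimates cover these samples of 1 line at 1 dose and time.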
